A study of Mus musculus with 12 samples.

Results

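The genes described here are those of the mouse major histocompatibility complex, named H2, together with the machinery that prepares and loads the peptides its proteins present. They were taken from the expression table as every row whose name begins with H2- and a list of 15 further antigen presentation genes. The table held 22 H2- rows and 14 of the 15 listed genes, so that 36 of its 11791 genes were members. Calr3 was not analysed here. By role, 3 were classical class I genes, 12 nonclassical class I genes, 1 the class I light chain, 5 peptide supply and loading genes, 5 immunoproteasome genes, 6 class II genes and 2 transactivators. The remaining 2 rows, H2-Ke2 and H2-Ke6, lie in the complex but act elsewhere: H2-Ke2 is Pfdn6, a subunit of the prefoldin chaperone, and H2-Ke6 encodes a steroid and fatty acid dehydrogenase.

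RNA was sequenced from whole liver of male mice fed an MCD diet, a diet used to produce fatty liver with inflammation, for 3 weeks; the animals were 10 weeks old. The strain label was C57BL/6 throughout, and 10 backcross generations are recorded for every group. Every group carried Lyzs cre, a Cre recombinase driven by the lysozyme promoter, which is active in macrophages, monocytes and neutrophils. Controls carried Lyzs cre alone; the group called KO carried Lyzs cre with p38g/d, which the labels call a knockout of the p38γ and p38δ kinases, in cells where the Cre is active; the group called anti-Ly6G carried Lyzs cre alone and received an antibody to Ly6G, a surface protein of neutrophils. Each group had 4 libraries, each a pool of RNA from 2 animals. The labels also give a mitochondrial background: the 4 control pools and KO pools 1 and 2 are marked C57, whereas KO pools 3 and 4 are marked NZB, as is every anti-Ly6G pool. Anti-Ly6G treatment and the NZB label therefore cannot be told apart in the comparison with controls. The labels name no control antibody, and the titles of the anti-Ly6G samples say GR1, an epitope shared by Ly6G and Ly6C, where their source names say Ly6G.

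Class I molecules sit on nearly all nucleated cells. A heavy chain paired with β2-microglobulin holds a short peptide that the proteasome cut from a cytosolic protein, that the TAP transporter carried into the endoplasmic reticulum and that tapasin helped to load, and the complex is read by CD8 T cells. Class II molecules are made mainly by dendritic cells, macrophages and B cells, hold peptides from endosomes, are escorted by the invariant chain Cd74 and are read by CD4 T cells. In liver most cells are hepatocytes, which make class I but little class II, so class II transcripts in whole-liver RNA come mainly from resident and recruited immune cells and the endothelium. The nonclassical class I genes of the Q, T and M regions have narrower roles; H2-Q10, for example, encodes a soluble class I protein that the liver secretes.

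The recovered library totals ranged from 13.1 to 22.3 M reads. Values below are the authors' normalised signal, reads scaled to a library size adjusted for composition. Sampling error was small for most members: H2-Bl was the 1 member of 36 with fewer than 10 reads in some libraries. The next lowest were H2-M3, H2-Q1, Ciita and H2-K2, with 16, 18, 25 and 31 reads in their lowest library. The hepatocyte markers Alb, Apoa1, Cyp2e1, Cps1, Ttr and Hnf4a summed to between 96912 and 139738 in the 12 libraries, and Cps1 was the 1 of these 6 called in any comparison with controls, lower in anti-Ly6G livers (-0.79, adjusted p = 0.00668). Mapk12, which encodes p38γ, ranged from 1.75 to 2.71 in controls and from 1.63 to 3.06 in KO pools; the ranges overlapped, and whole-liver RNA, in which most cells lack the Cre, gives no check of the deletion. Mapk13 and Ly6g were not analysed here.

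Promoter sequences are shown first, for 4 class I genes and for 2 class II genes, because both classes are known to share proximal elements. Of the class I genes, H2-K1, H2-D1 and H2-Q4 were called lower in anti-Ly6G livers and H2-Q10 was not. RefSeq promoters (build GRCm38.p6) were matched for 24 of the 36 members. Each line below gives the 200 bases before the start of transcription, 5′ to 3′ on the gene's own strand. The windows are chr17:34000348-34000547 on the minus strand for H2-K1, chr17:35262894-35263093 on the plus strand for H2-D1, chr17:35379417-35379616 on the plus strand for H2-Q4, chr17:35469889-35470088 on the plus strand for H2-Q10, chr17:34287824-34288023 on the minus strand for H2-Aa and chr17:34305667-34305866 on the plus strand for H2-Eb1. Capitals mark matches on either strand to 5 motifs: CCAAT, the box bound by NF-Y; TGACG, the core of the X2 element bound by CREB and ATF factors; GGG and TTCCC with 2 free bases between them, a form of the kappaB element; GAAA repeated after 2 free bases, an interferon regulatory factor element; and TTCNNNGAA, the element bound by STAT factors. No 2 of these motifs contain one another; TGACG and its reverse complement overlap in the H2-Aa window.
H2-K1: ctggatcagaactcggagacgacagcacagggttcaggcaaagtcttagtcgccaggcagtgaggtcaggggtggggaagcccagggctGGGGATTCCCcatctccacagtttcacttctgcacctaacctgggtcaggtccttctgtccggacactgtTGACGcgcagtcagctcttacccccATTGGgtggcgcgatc
H2-D1: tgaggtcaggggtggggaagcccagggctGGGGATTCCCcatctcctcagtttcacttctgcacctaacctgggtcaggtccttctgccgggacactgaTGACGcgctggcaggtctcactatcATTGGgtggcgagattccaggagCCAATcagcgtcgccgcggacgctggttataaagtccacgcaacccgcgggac
H2-Q4: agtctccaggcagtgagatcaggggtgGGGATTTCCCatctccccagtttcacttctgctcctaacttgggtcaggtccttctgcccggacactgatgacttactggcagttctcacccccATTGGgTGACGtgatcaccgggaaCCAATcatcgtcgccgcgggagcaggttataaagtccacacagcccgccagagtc
H2-Q10: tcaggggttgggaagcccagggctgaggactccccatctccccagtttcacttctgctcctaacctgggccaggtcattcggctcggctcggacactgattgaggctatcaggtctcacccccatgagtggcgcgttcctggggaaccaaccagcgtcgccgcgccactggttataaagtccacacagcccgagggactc
H2-Aa: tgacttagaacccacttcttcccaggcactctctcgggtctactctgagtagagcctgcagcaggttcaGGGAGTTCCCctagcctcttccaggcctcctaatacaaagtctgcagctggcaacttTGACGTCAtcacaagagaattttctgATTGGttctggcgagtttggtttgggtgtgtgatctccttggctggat
H2-Eb1: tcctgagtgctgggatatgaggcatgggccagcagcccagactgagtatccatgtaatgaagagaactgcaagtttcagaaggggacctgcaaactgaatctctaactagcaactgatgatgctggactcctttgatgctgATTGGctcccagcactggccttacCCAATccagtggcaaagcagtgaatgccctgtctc

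Within 250 bases before the first listed start, the kappaB form was present in 6 of 24 members (25%), namely H2-K1, H2-D1, H2-Q4, H2-Q6, H2-Q7 and H2-Aa, against 1.44% of 27025 promoters. CCAAT was present in 16 of 24 (66.7%) against 34.5%, and TGACG in 12 of 24 (50.0%) against 17.9%. The interferon regulatory factor element was found in B2m, H2-T22 and H2-T23 (12.5% against 3.04%) and the STAT element in Psmb8 and H2-M3 (8.33% against 7.18%). The class I promoters are near copies of one another, so these matches are not independent. Only exact matches were counted, so an element whose letters differ from these forms was missed. H2-K1 and H2-D1 matched the kappaB form as GGGGATTCCC, H2-Q4 as GGGATTTCCC and H2-Aa as GGGAGTTCCC. The H2-Q10 window held no exact match to any of the 5 motifs. A link between motifs and the differences between groups was not tested. Cd74, H2-Ab1, H2-K2, H2-Bl, H2-Q1, H2-Q5, H2-T10, H2-T24, Tap2, Tapbpl, Ciita and Nlrc5 had no entry.

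In control livers the class I chains B2m, H2-K1, H2-Q10 and H2-D1 were more abundant than any class II gene. Levels between genes are compared as signal per kilobase of annotated exon. The order of some genes depends on that length. Before this division mean control signal was 68.7 for H2-Aa, 58.0 for H2-Ab1 and 53.1 for H2-Eb1, the reverse of their order below. B2m stood at 1607 ± 89.7 per kilobase (SD, n = 4 here and throughout), H2-K1 at 472 ± 18.0, H2-Q10 at 370 ± 31.5 and H2-D1 at 364 ± 11.4; the ranges of H2-Q10 (346 to 415) and H2-D1 (351 to 378) overlapped, while B2m and H2-K1 stood above both in every control pool. The transcripts of H2-T23, whose product Qa-1 presents leader peptides of other class I chains to NK cell receptors, followed at 66.5 ± 5.73. Among class II genes the invariant chain Cd74 was highest at 84.5 ± 9.24, the chains H2-Eb1, H2-Ab1 and H2-Aa lay at 27.3 ± 2.97, 22.6 ± 1.15 and 18.1 ± 1.44, and the peptide exchange factors H2-DMb1 and H2-DMa at 5.20 ± 0.734 and 1.93 ± 0.422. The regulators were low: Nlrc5, the transactivator of class I genes, was at 3.47 ± 0.213 and Ciita, the transactivator of class II genes, at 0.277 ± 0.0371.

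Differences between groups were tested by limma on log2(signal + 0.5) over all 11791 genes with Benjamini-Hochberg adjustment, and a gene was called at an adjusted p under 0.05. A log2 difference on this scale understates the change of genes near or below the added 0.5. In KO against control livers 0 of 36 members were called, where 1.12% of all genes were (0.585% higher, 0.534% lower); 11 members had an unadjusted p under 0.05, against 18.9% of all genes, and edgeR's quasi-likelihood test on the recovered reads also called 0. In anti-Ly6G against control livers 3 members were higher and 16 lower, where 30.4% of all genes were called, 15.1% higher and 15.3% lower. The median log2 difference of the 36 members was -0.27, and that of all genes -0.00. In KO against anti-Ly6G livers 17 members were higher and 3 lower, where the share of all genes was 26.8%, 13.6% higher and 13.1% lower; the median of the members was 0.33 and that of all genes -0.01. These comparisons share their samples, so they are not independent. When the columns were scaled instead to the same total, all-gene calls in the anti-Ly6G comparison split into 1267 higher and 1977 lower (from 1775 and 1805), in KO against control into 123 and 37 (from 69 and 63), and in KO against anti-Ly6G into 2333 and 701 (from 1608 and 1549), while the member counts became 3 and 19, 0 and 0, and 21 and 3. With the mitochondria label as a covariate, which compares anti-Ly6G with control only through the split KO group, 6 of the 19 anti-Ly6G calls remained: H2-Bl, H2-T10, H2-T24, H2-M3, H2-Q4 and H2-Q5.

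**Figure D1:**
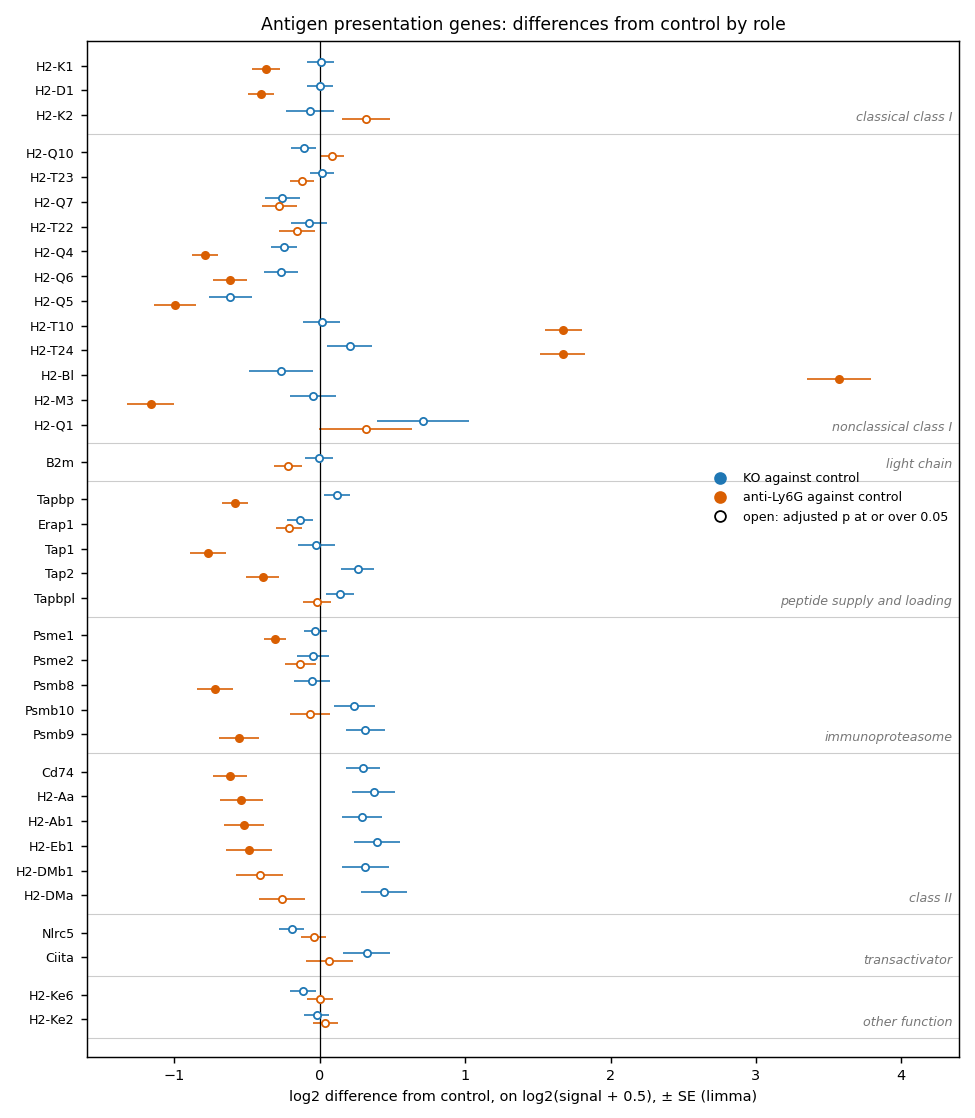
Log2 difference from control (x axis, on log2(signal + 0.5), bars ± SE from limma) for each of the 36 genes, grouped by role; blue is KO, orange anti-Ly6G, and filled points have an adjusted p under 0.05. No blue point is filled; 16 orange points left of 0 and 3 right of 0 are, with H2-Bl farthest right at 3.57.

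Class II transcripts were lower in anti-Ly6G livers than in controls. Cd74 read 148, 143, 120.2 and 157 in the control pools, 176, 168, 199 and 155 in the KO pools and 109.9, 83.4, 101 and 77.3 in the anti-Ly6G pools. Every anti-Ly6G pool lay below every control pool, and the KO and control pools overlapped. Cd74 fell by 0.62 ± 0.12 on the log2 scale in anti-Ly6G livers (limma, adjusted p = 0.00207). H2-Aa, the α chain of I-A, read 71.5, 65.3, 63.1 and 74.9 in controls, 88.0, 90.7, 100.3 and 77.8 in KO pools and 63.7, 51.0, 43.9 and 34.1 in anti-Ly6G pools. All KO pools were above all control pools, and anti-Ly6G pool 1 reached into the control range. H2-Aa fell by 0.54 ± 0.15 (adjusted p = 0.0146). H2-Ab1, the β chain of I-A, read 58.3, 60.2, 53.8 and 59.9 in controls, 76.7, 67.8, 80.5 and 60.6 in KO pools and 51.5, 43.8, 39.4 and 29.6 in anti-Ly6G pools, and its 3 groups did not overlap. It fell by 0.52 ± 0.14 (adjusted p = 0.0123). H2-Eb1, the β chain of I-E, read 52.5, 51.8, 47.2 and 61.0 in controls, 70.5, 68.8, 81.2 and 59.7 in KO pools and 51.1, 41.1, 35.5 and 26.8 in anti-Ly6G pools, with overlap between neighbouring groups. It fell by 0.49 ± 0.16 (adjusted p = 0.0325), a call lost without control pool 1, 2 or 4 or without anti-Ly6G pool 3 or 4 (adjusted p from 0.0579 to 0.0858) and in a fit of these 2 groups alone. Strain C57BL/6 lacks a functional I-E α chain, so the H2-Eb1 transcript does not imply I-E protein.

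The peptide exchange pair followed the same order without passing the test against controls. H2-DMa read 4.85, 7.72, 6.06 and 7.93 in controls, 9.70, 8.92, 10.9 and 7.03 in KO pools and 6.20, 5.27, 4.72 and 5.33 in anti-Ly6G pools. Its anti-Ly6G and control pools overlapped, with an anti-Ly6G difference of -0.26 ± 0.16 (adjusted p = 0.231). H2-DMb1 read 7.37, 8.67, 8.55 and 10.4 in controls, 12.3, 10.4, 11.98 and 9.23 in KO pools and 8.72, 6.64, 6.10 and 4.69 in anti-Ly6G pools. Anti-Ly6G pool 1 lay within the control range and the other 3 below it, with a difference of -0.41 ± 0.16 (adjusted p = 0.0643); without anti-Ly6G pool 1 it was called (-0.55, adjusted p = 0.015). In KO against control livers the differences of all 6 class II genes were positive, from 0.29 for H2-Ab1 to 0.44 for H2-DMa, and none passed the test (adjusted p from 0.165 to 0.307). In KO against anti-Ly6G livers all 6 were higher, by 0.70 for H2-DMa to 0.91 for Cd74 (adjusted p from 0.000194 to 0.00608), with no overlap of pools. All 6 were also called against the 2 KO pools that share the NZB label with the anti-Ly6G pools, with differences from 0.66 to 0.93. Their adjusted p (limma) ran from 0.00372 for Cd74 to 0.0435 for H2-DMb1 and 0.0498 for H2-DMa, the last at the edge of the threshold. With the label as a covariate the anti-Ly6G against control differences of Cd74, H2-Aa, H2-Ab1 and H2-Eb1 were -0.65, -0.52, -0.47 and -0.49 and no longer passed (adjusted p from 0.0737 to 0.287).

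**Figure D2:**
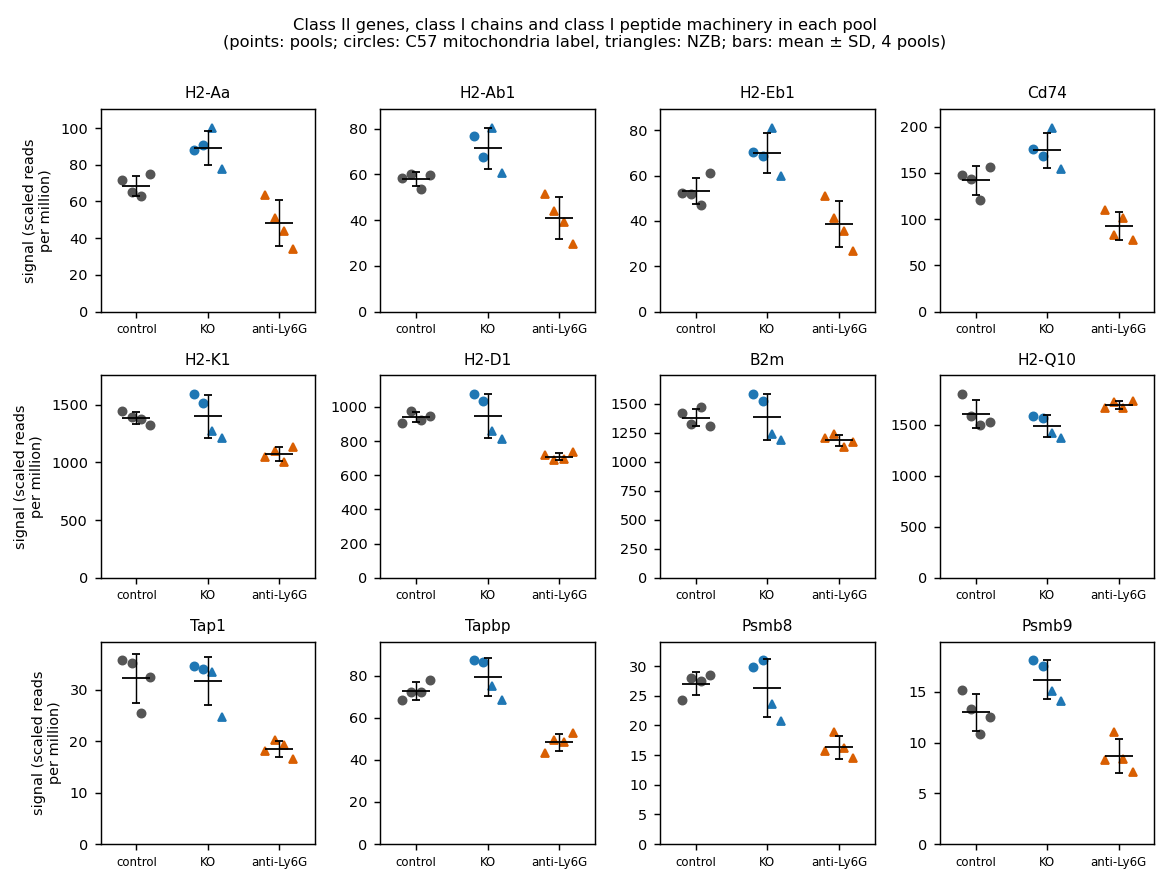
Signal in each pool (y axis, scaled reads, from 0) for 4 class II genes (top), the class I chains H2-K1, H2-D1, B2m and H2-Q10 (middle) and 4 genes of class I peptide supply (bottom); circles carry the C57 mitochondria label, triangles NZB, and bars are mean ± SD of 4 pools. The KO triangles of H2-K1, H2-D1, B2m and Psmb8 lie below the KO circles, while those of the class II genes lie on both sides.

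Some markers of cells that carry class II were also called lower in anti-Ly6G livers, where 15.3% of all genes were; none of the lists had a gene called in KO against control. The 8 macrophage and monocyte markers summed to between 320.0 and 551 in controls, 474 and 649 in KO pools and 208 and 277 in anti-Ly6G pools, and 4 of 8 (Cd68, Itgam, Csf1r and Mpeg1) fell in the last, while Ccr2 (0.50), Lyz2, Emr1 and Ms4a7 did not pass. Of the 6 Kupffer cell markers Marco and Cd5l fell and Clec4f, Timd4, Vsig4 and C6 did not pass; their sum ranged from 351 to 499 in controls and from 266 to 424 in anti-Ly6G pools. Of the 5 dendritic cell markers measured 1, Itgax, fell (-1.36, adjusted p = 0.00192), and it carried most of the difference between the sums of 21.2 to 36.5 and 14.1 to 20.3; Siglech (0.64, adjusted p = 0.0646), Clec9a (0.08), Zbtb46 (-0.24) and Flt3 (-0.32) did not pass. Of the 4 B cell markers Cd79a and Cd79b fell and Ighm and Cd22 did not pass, with sums of 14.8 to 23.98 and 10.6 to 14.9. The defining genes Ms4a1, Pax5, Xcr1, Cd209a and Ccr7 were not analysed here. The 5 neutrophil markers summed to 16.4 to 30.2 in controls, 26.5 to 30.7 in KO pools and 7.11 to 12.8 in anti-Ly6G pools, and 4 of them (S100a8, S100a9, Csf3r and Clec4d) fell. Ccl5, the 1 T and NK cell marker measured, also fell. Of 6 endothelial markers Kdr and Cdh5 fell. Both bile duct markers measured fell as well: Spp1 by 0.61 (limma, adjusted p = 0.0196) and Sox9 by 0.65 (adjusted p = 0.0036). The part of these cells in the class II result was not tested, and in whole liver fewer cells of a type cannot be told apart from less RNA per cell.

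Across the 12 libraries the class II genes varied as a group. Pairwise correlations of log2 signal among the 6 ranged from 0.797 to 0.994 with a median of 0.944. These libraries share their groups, so the values describe the set and carry no test. The correlation of each of the 6 with the mean class II profile ran from 0.879 for H2-DMa to 0.991 for H2-Eb1. That profile includes the gene itself, which raises these values, so they cannot be ranked against those of other genes. Among the other 30 members Psmb9 was highest (0.855), then H2-M3 (0.813) and Tap1 (0.811). Of all other genes, the 5 with the most similar profile were Serpinh1 (0.959), a collagen chaperone, Lsp1 (0.951), an actin-binding protein of leukocytes, Tspan17 (0.947), Arhgap9 (0.945) and Cd52 (0.944), a surface glycoprotein of lymphocytes and monocytes.

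The classical class I heavy chains were lower in anti-Ly6G livers and divided the KO pools by label. H2-K1 read 1450.2, 1398, 1372 and 1324 in controls, 1595, 1519, 1271 and 1212 in KO pools and 1047, 1102, 1005 and 1135 in anti-Ly6G pools. Every anti-Ly6G pool was below every control and KO pool, KO pools 1 and 2 were above all controls and KO pools 3 and 4 below all controls. H2-K1 fell by 0.37 ± 0.09 in anti-Ly6G livers (adjusted p = 0.00989). H2-D1 read 906, 976, 926 and 944 in controls, 1077, 1034, 861 and 815 in KO pools and 717, 688, 693 and 735 in anti-Ly6G pools, with the same arrangement. It fell by 0.41 ± 0.09 (adjusted p = 0.00453). B2m, the light chain that all class I molecules need, read 1423, 1325, 1470.1 and 1309.6 in controls, 1587, 1524, 1243 and 1189 in KO pools and 1201, 1244, 1131 and 1169 in anti-Ly6G pools. All anti-Ly6G pools were below all control pools, and the difference of -0.22 ± 0.10 did not pass (adjusted p = 0.106); with equal column totals it did (-0.26, adjusted p = 0.0208). H2-K2, annotated as a transcribed pseudogene, lay between 1.84 and 3.23 in all 12 pools and was not called.

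With the label as a covariate the anti-Ly6G against control differences of H2-K1 and H2-D1 were -0.04 and -0.07 (adjusted p = 0.849 and 0.708), and that of B2m was 0.14 (adjusted p = 0.508). Against KO pools 3 and 4 alone, H2-K1 was higher in KO by 0.21 (adjusted p = 0.122) and H2-D1 by 0.24 (adjusted p = 0.0581), whereas with all 4 KO pools the differences were 0.38 (adjusted p = 0.0104) and 0.41 (adjusted p = 0.00486). KO against control differences were 0.00 for H2-K1 and 0.00 for H2-D1 with all KO pools, 0.17 and 0.17 with pools 1 and 2 and -0.16 and -0.16 with pools 3 and 4; none was called. Within a pool H2-K1 over B2m was 0.933 to 1.055 in controls, 0.997 to 1.02 in KO pools, where it hardly varied between labels, and 0.872 to 0.971 in anti-Ly6G pools.

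The division of the KO group by label held for most class I genes and for both genes of other function, and not for class II. Of 36 members, 21 had both NZB pools below both C57 pools, where 26.9% of all genes did, and 2 had them above, where 27% of all genes did. The median log2 difference of NZB against C57 pools was -0.18 over the members and 0.01 over all genes. Among H2-K1, H2-D1, B2m and the 10 peptide supply and immunoproteasome genes, 11 of 13 were lower without overlap; H2-K1 and H2-D1 differed by -0.33 each, B2m by -0.35 and Psmb8 by -0.45. Outside these 13, the nonclassical gene H2-T22 differed by -0.49. H2-Ke2 and H2-Ke6, which do not present antigen, were also lower without overlap, by -0.21 and -0.19. The 6 class II differences lay between -0.10 and 0.03. With 2 pools a side limma called 0 of the 36 and 0 of all genes; 10 members and 9.84% of all genes had an unadjusted p under 0.05, and edgeR also called 0. Equal column totals moved the median of all genes in this comparison to 0.11, where 16 members lay below without overlap (13.3% of all genes) and 2 above (46.7%), with H2-K1, H2-D1 and B2m at -0.22, -0.22 and -0.25.

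The nonclassical class I genes held both the largest rise and the largest fall of the set in anti-Ly6G livers. H2-Bl, a T region gene annotated as a polymorphic pseudogene, read 0.819, 0.301, 0.475 and 0.529 in controls, 0.358, 0.58, 0.291 and 0.191 in KO pools and 13.5, 13.0, 7.82 and 12.9 in anti-Ly6G pools. These values rest on 6 to 13, 4 to 11 and 160 to 257 reads. The anti-Ly6G pools stood far above the rest and H2-Bl rose by 3.57 ± 0.22 (adjusted p = 1.82e-07). H2-T10, also annotated as a polymorphic pseudogene and known as a ligand of γδ T cells, read 4.79, 4.96, 3.62 and 3.17 in controls, 4.60, 4.22, 3.83 and 3.87 in KO pools and 13.8, 15.1, 13.7 and 13.9 in anti-Ly6G pools. It rose by 1.68 ± 0.13 (adjusted p = 1.86e-06). H2-T24 read 2.14, 1.95, 2.61 and 3.04 in controls, 3.27, 2.27, 2.62 and 3.40 in KO pools and 9.99, 9.17, 8.73 and 7.36 in anti-Ly6G pools. It rose by 1.67 ± 0.15 (adjusted p = 1.11e-05). For all 3 genes KO pools 3 and 4, which carry the NZB label, lay below every anti-Ly6G pool, and the calls were kept with the label as a covariate (differences of 3.95, 1.85 and 1.56).

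H2-M3, which presents N-formylated peptides of bacteria and mitochondria, read 3.91, 5.76, 4.57 and 4.62 in controls, 3.88, 5.28, 4.16 and 4.83 in KO pools and 2.34, 1.88, 1.86 and 1.29 in anti-Ly6G pools. These values rest on 62 to 115, 76 to 101 and 16 to 39 reads. Control and KO pools overlapped and all anti-Ly6G pools were below both. H2-M3 fell by 1.16 ± 0.16 (adjusted p = 0.000242), and by 1.15 with the label as a covariate (adjusted p = 0.0312). The T region genes H2-T22 and H2-T23 showed no step of that size. H2-T22, the close relative of H2-T10, read 94.9, 94.9, 94.6 and 93.0 in controls, 105, 107, 77.1 and 73.8 in KO pools and 90.5, 92.8, 68.4 and 88.7 in anti-Ly6G pools, with KO pools divided by label. All anti-Ly6G pools of H2-T22 lay below all control pools, the nearest by a small margin. H2-T23 read 216, 186, 186 and 179.6 in controls, 213, 210.0, 174 and 181 in KO pools and 176, 181, 166 and 179.8 in anti-Ly6G pools. Neither was called in any comparison.

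**Figure D3:**
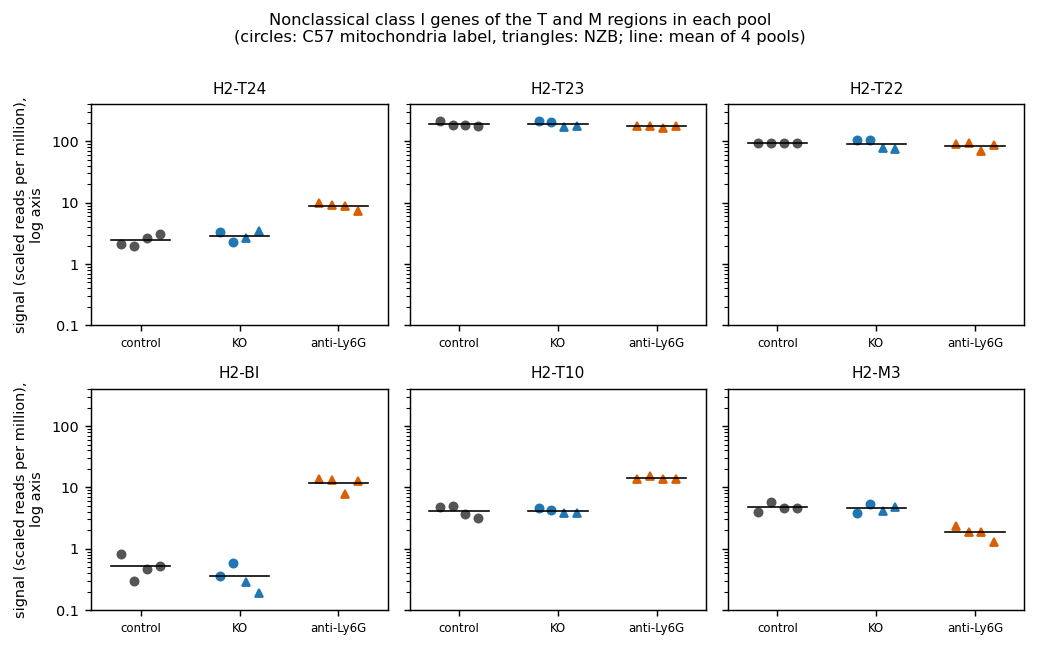
Signal per pool (y axis, log scale common to all panels) of 5 T region genes and H2-M3; circles carry the C57 mitochondria label, triangles NZB, and lines are means of 4 pools. H2-Bl, H2-T10 and H2-T24 stand higher in all 4 anti-Ly6G pools, H2-M3 stands lower, and the groups of H2-T23 overlap; those of H2-T22 lie close together, with all anti-Ly6G pools just or further below the controls.

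Sequence copies limit what some of these counts mean. Of the 25-base words in its transcripts, H2-T10 shares 53.6% with H2-T22 and 31.1% are found in no other gene, so reads of the pair can be divided wrongly. The sum of H2-T10 and H2-T22 was 96.2 to 99.8 in controls, 77.7 to 111 in KO pools and 82.1 to 108 in anti-Ly6G pools. H2-Bl has 70.4% unique words, H2-T24 90.8% and H2-M3 93.5%. Over the 36 members, 22 had under 90% unique words.

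The Q region genes were lower in anti-Ly6G livers, apart from H2-Q10, H2-Q7 and H2-Q1. H2-Q4 read 98.6, 96.9, 78.8 and 88.8 in controls, 80.1, 85.2, 76.0 and 65.0 in KO pools and 53.0, 52.8, 50.0 and 52.5 in anti-Ly6G pools. The anti-Ly6G pools were closely grouped below all others, and H2-Q4 fell by 0.79 ± 0.09 (adjusted p = 6.18e-05). H2-Q5, annotated as a polymorphic pseudogene, read 19.0, 14.8, 13.7 and 10.8 in controls, 8.58, 9.28, 10.9 and 8.13 in KO pools and 7.84, 6.39, 7.30 and 6.30 in anti-Ly6G pools. It fell by 1.00 ± 0.15 (adjusted p = 0.00039). In KO against control livers its difference of -0.62 ± 0.15 was the nearest of any member to the threshold (adjusted p = 0.0595); it was called by DESeq2 (-0.66, adjusted p = 0.0052) and without control pool 4 (-0.75, adjusted p = 0.021). H2-Q6, which with H2-Q7 encodes Qa-2, read 77.02, 68.9, 65.0 and 59.3 in controls, 59.7, 66.8, 53.1 and 45.7 in KO pools and 50.1, 42.4, 42.8 and 40.1 in anti-Ly6G pools, and fell by 0.62 ± 0.11 (adjusted p = 0.00176). Its KO against anti-Ly6G difference of 0.35 (adjusted p = 0.0381) was lost without any 1 of 6 of the 8 pools, all but KO pool 4 and anti-Ly6G pool 1 (adjusted p from 0.0562 to 0.109). H2-Q7 lay between 93.0 and 119.9 in controls and between 79.5 and 102 in anti-Ly6G pools, a difference of -0.28 ± 0.12 (adjusted p = 0.0914) that passed without anti-Ly6G pool 1 (-0.37, adjusted p = 0.0374). With the label as a covariate the anti-Ly6G against control calls of H2-Q4 and H2-Q5 were kept (-0.56 and -1.07). That of H2-Q6 was not (-0.26, limma, adjusted p = 0.326). The words unique to H2-Q4, H2-Q5, H2-Q6 and H2-Q7 are 39.7%, 34.7%, 40.0% and 53.4%, and their separate values are uncertain for that reason.

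H2-Q10 was not called lower in anti-Ly6G livers, unlike H2-K1 and H2-D1 and like B2m and H2-T23. H2-Q10 was not tested against those genes. It read 1806, 1590.0, 1503 and 1532 in controls, 1589, 1564, 1425 and 1370.3 in KO pools and 1670.4, 1728, 1662 and 1737 in anti-Ly6G pools, where 3 control pools were lower than every anti-Ly6G pool. The difference was 0.08 ± 0.08 (adjusted p = 0.472), against the falls of H2-K1 and H2-D1 in the same pools. In KO against anti-Ly6G livers, where all KO pools were below all anti-Ly6G pools, it was -0.19 ± 0.08 (adjusted p = 0.0986), and with the label as a covariate -0.28 (adjusted p = 0.0493). H2-Q1 lay between 1.13 and 5.53 over all pools and was not called.

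The genes that supply peptides to class I were lower in anti-Ly6G livers at the transporter and at tapasin. Tap1, a subunit of the peptide transporter, read 35.7, 35.1, 25.4 and 32.4 in controls, 34.5, 34.1, 33.3 and 24.7 in KO pools and 18.1, 20.2, 19.2 and 16.6 in anti-Ly6G pools. All anti-Ly6G pools were below all others, and Tap1 fell by 0.77 ± 0.13 (adjusted p = 0.000755). Tap2, the other subunit, read 20.8, 24.1, 20.4 and 22.9 in controls, 26.6, 28.5, 27.9 and 23.3 in KO pools and 13.4, 15.6, 19.2 and 19.2 in anti-Ly6G pools. It fell by 0.39 ± 0.11 (adjusted p = 0.0194), a call lost without control pool 2 or anti-Ly6G pool 1 or 2 (adjusted p from 0.0532 to 0.0592). Tapbp, which encodes tapasin, read 68.3, 72.4, 72.1 and 78.2 in controls, 87.5, 86.3, 75.0 and 68.5 in KO pools and 43.1, 49.3, 48.4 and 53.0 in anti-Ly6G pools, and fell by 0.58 ± 0.09 (adjusted p = 0.000481). The trimming peptidase Erap1 read 63.5, 66.7, 66.9 and 63.5 in controls, 66.6, 58.98, 54.3 and 58.3 in KO pools and 55.9, 66.9, 53.2 and 49.6 in anti-Ly6G pools, with overlap between all groups. Erap1 and the tapasin relative Tapbpl (17.01 to 23.8 over all pools) were not called in any comparison. Of 4 endoplasmic reticulum chaperones that fold class I chains, Canx and Hspa5 rose in anti-Ly6G livers by 0.28 and 0.31, and Calr (0.36, adjusted p = 0.0742) and Pdia3 (0.13, adjusted p = 0.276) did not pass. The share of all genes called higher was 15.1%.

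The immunoproteasome replaces the catalytic subunits of the standard proteasome and changes which peptides are cut. Psmb8 read 24.3, 28.0, 27.5 and 28.5 in controls, 29.9, 31.0, 23.6 and 20.8 in KO pools and 15.6, 18.9, 16.1 and 14.5 in anti-Ly6G pools, where it fell by 0.72 ± 0.12 (adjusted p = 0.00105). Psmb9 read 15.2, 13.3, 10.8 and 12.6 in controls, 18.1, 17.5, 15.1 and 14.1 in KO pools and 8.28, 11.05, 8.39 and 7.11 in anti-Ly6G pools, where it fell by 0.56 ± 0.14 (adjusted p = 0.00798). The pools of Psmb8 did not overlap between anti-Ly6G and control, and 1 anti-Ly6G pool of Psmb9 reached above the lowest control. The other subunit, Psmb10, lay between 17.2 and 21.4 in controls and between 15.0 and 23.3 in anti-Ly6G pools and was not called. Psme1 and Psme2 form the regulator that opens the proteasome. Psme1 read 79.7, 81.7, 86.5 and 87.3 in controls, 85.1, 85.5, 81.97 and 75.9 in KO pools and 64.6, 76.6, 60.1 and 70.2 in anti-Ly6G pools, and fell by 0.31 ± 0.08 in anti-Ly6G livers without overlap with controls (adjusted p = 0.00956). Psme2 read 56.4, 56.4, 58.98 and 57.8 in controls, 63.9, 59.5, 54.1 and 46.4 in KO pools and 52.7, 59.7, 42.7 and 55.5 in anti-Ly6G pools, overlapped between all groups and was not called. With the label as a covariate the anti-Ly6G against control differences of Psmb8, Psmb9 and Psme1 were -0.27, -0.27 and -0.19. None of these passed (limma, adjusted p from 0.288 to 0.458).

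Of 5 standard counterparts, 2 were higher and 0 lower in anti-Ly6G livers, where 15.1% of all genes were higher and 15.3% lower. Psmb6 and Psmb7 rose in anti-Ly6G livers by 0.24 and 0.29 (adjusted p = 0.00573 and 0.00532), and Psmb5, Psme3 and Psme4 did not pass. Within a pool Psmb8 over Psmb5 was 0.328 to 0.341 in controls, 0.357 and 0.397 in KO pools 1 and 2, 0.275 and 0.242 in KO pools 3 and 4, and 0.164 to 0.219 in anti-Ly6G pools. Psmb9 over Psmb6 was 0.116 to 0.163 in controls, 0.156 to 0.193 in KO pools and 0.0628 to 0.104 in anti-Ly6G pools. Psmb10 over Psmb7 overlapped between all groups, at 0.187 to 0.273, 0.210 to 0.311 and 0.146 to 0.211. For the first 2 ratios anti-Ly6G differed from control by -0.84 and -0.82 on the log2 scale (exact permutation test, two-sided, p = 0.0286, the smallest that 4 against 4 allows; adjusted over 9 tests, p = 0.0643), with all 4 pools lower. Psmb10 over Psmb7 differed by -0.36 (exact permutation test, p = 0.143; adjusted p = 0.184).

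**Figure D4:**
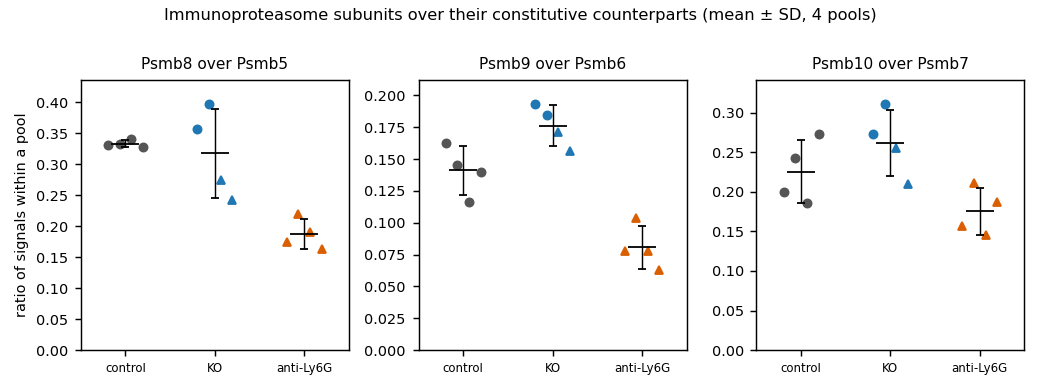
Ratio of each inducible catalytic subunit to its standard counterpart within a pool (y axis, from 0; bars are mean ± SD of 4 pools); circles carry the C57 mitochondria label, triangles NZB. Psmb8 over Psmb5 is 0.328 to 0.341 in controls and 0.164 to 0.219 in anti-Ly6G pools, and KO pools lie above or below the controls by label.

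The transactivators were not called in any comparison. Nlrc5 read 31.6, 27.3, 29.2 and 29.8 in controls, 26.6, 27.2, 28.1 and 21.5 in KO pools and 27.1, 30.2, 28.8 and 28.3 in anti-Ly6G pools, a difference of -0.04 ± 0.09 in anti-Ly6G livers (adjusted p = 0.739). Ciita read 2.90, 2.15, 2.61 and 2.91 in controls, 3.12, 3.11, 3.74 and 3.73 in KO pools and 3.79, 2.79, 2.72 and 2.02 in anti-Ly6G pools. All KO pools of Ciita were above all controls, with a difference of 0.32 ± 0.16 that did not pass (adjusted p = 0.302), and the anti-Ly6G difference was 0.06 ± 0.16 (adjusted p = 0.786). H2-Aa, H2-Ab1 and Ciita were the 3 members whose KO pools all lay above the control pools, where 5.73% of all genes did, and 0 members lay wholly below, where 6.62% of all genes did. In the anti-Ly6G comparison 3 members lay wholly above and 15 wholly below, where 14.2% and 13.1% of all genes did.

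The 2 genes of the complex with other functions were measured at the same time. H2-Ke6 read 42.5, 41.1, 46.3 and 42.3 in controls, 44.9, 39.9, 39.2 and 34.9 in KO pools and 44.9, 44.3, 36.96 and 46.7 in anti-Ly6G pools, and H2-Ke2 read 20.6, 21.8, 20.9 and 22.4 in controls, 22.98, 22.4, 19.6 and 19.6 in KO pools and 22.3, 21.2, 20.1 and 24.8 in anti-Ly6G pools. Their groups overlapped and neither was called in any comparison.

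Of 20 measured genes that carry interferon signals to these promoters or bind them, 0 were called in KO against control livers, where 1.12% of all genes were. In anti-Ly6G livers 4 of the 20 were called higher and 3 lower. These counts are near the shares of all genes, 15.1% higher and 15.3% lower. The kinase Tyk2, the signal transducer Stat2 and the promoter-binding factors Rfxap and Creb1 rose by 0.42, 0.25, 0.47 and 0.32. The kinase Jak1, the receptor chain Ifnar2 and the myeloid factor Irf8 fell by 0.28, 0.37 and 0.46. Irf1 (-0.17, adjusted p = 0.148), Rfx5 and Nfyb did not pass. Of 7 measured genes of class II endosomal processing, 4 fell and 0 rose: cathepsin S (Ctss), which trims the invariant chain, by 1.04, Lgmn by 0.73, the thiol reductase Ifi30 by 0.72 and Ctsb by 0.54; Ctsl, Ctsh and March1 were not called. These 4 are also made by macrophages. Of 6 class I-like genes outside the complex, Cd1d1, which presents lipids to NKT cells, rose by 0.54 and Fcgrt, the neonatal Fc receptor, by 0.23, and Azgp1, Hfe, Mr1 and Procr were not called. These 2 of 6 are near the 30.4% of all genes called in either direction.

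The members of the complex lie on chromosome 17 between 33915899 and 37274484 (GRCm38, GENCODE vM21), where 27 of the 36 stand among 80 other measured genes. In anti-Ly6G against control livers 3 of the 27 were higher and 14 lower, where 15.1% of all genes were higher and 15.3% lower. Of the 80 others 13 were higher (16.25%) and 7 lower (8.75%). Of the 9 members on other chromosomes 0 were higher and 2 lower (22.2%). The median log2 difference was -0.39 for the 27 members of the span and -0.02 for the other 80 genes. The 3 members that rose lie close together, H2-T24 at 36005695 to 36020560, H2-Bl at 36080115 to 36084223 and H2-T10 at 36115876 to 36121465, with H2-T23 (36029773 to 36032855) and H2-T22 (36037128 to 36042747) between the first and the second. The next measured gene, Gm20478, an antisense transcript at 36167982 to 36171805 that was singled out after its values were seen, was listed at 0 to 0.0594 in controls, 0 to 0.125 in KO pools and 2.29 to 3.04 in anti-Ly6G pools. It rose with them (2.59 ± 0.20, adjusted p = 2.69e-06). H2-M3 lies apart from these, at 37270220 to 37274484.

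**Figure D5:**
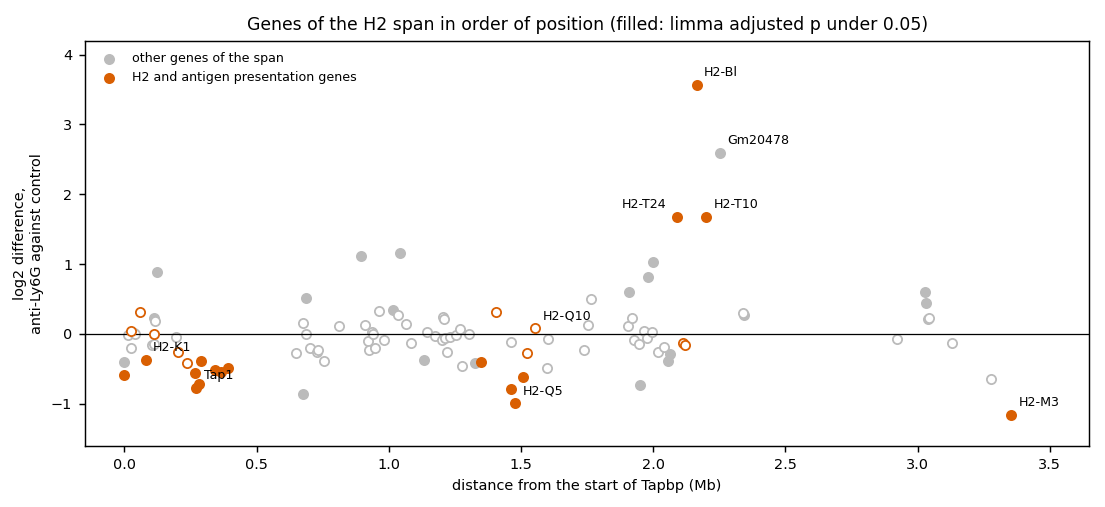
Log2 difference of anti-Ly6G against control (y axis) for the 27 members and 80 other measured genes of the H2 span by distance from the start of Tapbp (x axis, Mb); orange points are the members, grey points other genes, and filled points have an adjusted p under 0.05. The rises of H2-T24, H2-Bl, H2-T10 and Gm20478 lie within a short stretch that also holds H2-T23 and H2-T22, which were not called, while 14 members along the span are filled below 0.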

How the data were processed

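Whole-liver RNA of 3 groups of 4 pools was read on Illumina's Genome Analyzer IIx; the labels' protocols give 12 males per genotype and 2 animals per pool; p-values measure the spread between these pools. The submitters' processing notes name RSEM 1.2.3 and Bowtie2 2.0.6, with cutadapt 1.2.1 and edgeR, and the build GRCm38. The deposited values are a normalised signal for 11791 genes; all values are whole multiples, within 0.01, of the signal of 1 read, so the authors' reads were taken as recovered, and the scaling equals a TMM library size; a stricter check on low values passed in 4 of the 12 columns, which limits the read counts and the edgeR and DESeq2 alternatives. The design had been written for such a scaled unit, and the signal of 3 reads was 0.125 to 0.242. The sources used here do not give how reads of near-identical genes, such as the H2 copies, were assigned.

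The main test was limma 3.58.1 (R 4.3.3) with a mean-variance trend on log2(signal + 0.5), with 12 libraries, group as the only term, no filter and Benjamini-Hochberg adjustment at 0.05. Values in every pool are given for members called in any comparison and for the 2 members of highest mean in each role. Alternatives were edgeR 4.0.16 and DESeq2 1.42.0 on recovered reads, pseudocounts of 0.1 and 1, a mean of at least 5, equal column totals, the pool number as a block, the mitochondria label as a covariate, single labels, 2 groups alone and each pool left out. Gene models came from GENCODE vM21 and promoters from RefSeq. The fits were tested on simulated data. Members and lists were chosen with earlier results of these data known. Calr3, Mapk13, Ly6g and Socs1 were not analysed here. Some genes of the lists are counted but not reported by name here.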

Additional observations from a re-analysis of the deposited data

Results flagged for a closer look

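Of 108 groups of 4 pools (36 genes in 3 groups), 6 held a pool whose gap to the nearest other pool took up more of the group's range than Dixon's critical value for 4 samples allows; chance gives about 1 in 20 groups. H2-K2 read 2.76 in KO pool 1 and 1.87 to 2.00 in the other KO pools. Tap1 read 24.7 in KO pool 4 and 33.3 to 34.5 in the others. In the anti-Ly6G group H2-Bl read 7.82 in pool 3 against 12.9 to 13.5, and H2-T22 read 68.4 in the same pool against 88.7 to 92.8. H2-T10 read 15.1 in pool 2 against 13.7 to 13.9, and H2-Q7 read 101.8 in pool 1 against 79.5 to 80.0.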

How the results depend on the processing

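The 19 members called in anti-Ly6G against control were all kept under edgeR, DESeq2, both other pseudocounts, equal column totals and the block; with a mean of at least 5, 16 of the 16 still tested were kept, and in a fit of 2 groups alone 18 were. With the mitochondria label as a covariate 6 were kept; that fit compares the groups through the 4 KO pools. Leaving out each pool gave 17 to 20 calls in this comparison, 19 to 20 in KO against anti-Ly6G and 0 to 1 in KO against control, where DESeq2 also gave 1. The same fits over all genes moved KO against control from 132 calls to 577 with DESeq2, 79 with the covariate, 58 with KO pools of label C57 alone, 49 with NZB alone and 3 to 319 without 1 pool. They moved anti-Ly6G against control from 3580 to 973 with the covariate, and KO against anti-Ly6G from 3157 to 2041 with NZB alone and 1849 with C57 alone. NZB alone in the first of these and C57 alone in the last were chosen after seeing the data. Equal totals shifted the median of all genes by 0.06 in KO against control, -0.04 in anti-Ly6G against control and 0.09 in KO against anti-Ly6G.

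The pool numbers did not pair the samples (correlations of same-numbered deviations from -0.209 to 0.172). With the number as a block 0, 20 and 20 members were called in the 3 comparisons (KO first against control and last against anti-Ly6G), and 20, 3445 and 2984 genes in all.

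Signs changed in differences near 0, none of them called, and the cause was not tested. In KO against control B2m was 0.0038 with edgeR, 0.0065 with DESeq2, 0.0609 with equal totals, 0.1717 with the covariate and 0.1717 with C57 alone, and -0.0746 to 0.064 without 1 pool. H2-D1 and H2-K1 were -0.163 and -0.1585 with NZB alone, and -0.0619 to 0.0722 and -0.0612 to 0.0711 without 1 pool. In anti-Ly6G against control the covariate gave 0.1354 for B2m, -0.1651 for Ciita, 0.0456 for H2-Q7, 0.0834 for Nlrc5 and 0.2796 for Psmb10; without 1 pool Ciita was -0.0661 to 0.19 and Psmb10 -0.1781 to 0.0282. Depth limits H2-Bl most, with 4 to 13 reads in control and KO libraries.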
